A study of Mus musculus with 12 samples.

Results

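Cd59a, Cd59b, Cd55, Cr1l, Serping1 and C3 encode 5 inhibitors of the complement cascade and its central component, and their transcripts were followed in hearts of mouse embryos in which Ino80 was disrupted with Tie2. They are the rows of the deposited count table with these 6 symbols, 6 of 45664 rows, and all 6 were among the 20691 genes with enough counts to be tested. The set was chosen by its measured counts, those of Cd59a and Cd59b being higher in Ino80-disrupted than in control hearts, and by the place of these genes side by side on chromosome 2. The difference between genotypes in the members is therefore given as a description, without a test.

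The libraries are bulk RNA of whole hearts, 1 library per embryo, in 4 groups of 3: Ino80-disrupted (KO) and wild-type (WT) hearts at E14.5, and KO and WT hearts at E13.5 (E, days of embryonic development). Ino80 encodes the ATPase of the INO80 chromatin remodelling complex. Tie2 drives recombination in endothelial cells and also in blood cells of the same lineage, so most cells of a whole heart, cardiomyocytes among them, lie outside the targeted lineage. The sources used here do not name the strain, the part of Ino80 that was deleted or the alleles that the WT embryos carried. Litter 1 gave all E13.5 embryos. The E14.5 embryos came from litter 2 (KO replicates 2 and 4, WT replicates 8 and 7) and litter 3 (KO replicate 1, WT replicate 7.2), so stage and litter cannot be told apart.

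Complement is a cascade of plasma proteins that marks surfaces for removal by phagocytes and can end in a membrane attack complex that pierces the cell. Its classical and lectin branches start on bound recognition proteins, its alternative branch turns over continuously, and all branches meet at the cleavage of C3. Host cells carry membrane inhibitors because C3 fragments also settle on healthy tissue. Endothelium and blood cells, which face plasma, are known to carry several of these inhibitors.

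Libraries held 46556032 to 182545647 counts. Levels are counts relative to library size (CPM), scaled between libraries by the trimmed mean of M-values (TMM). The deposited counts cover the whole Ino80 gene, which lay at 27.0 to 31.9 CPM in the 6 KO hearts and 30.7 to 36.6 CPM in the 6 WT hearts and did not pass the test averaged over stages (log2 fold change -0.15, standard error (SE) 0.06, edgeR adjusted p = 0.22). A count over the whole gene does not show whether the deleted part was lost. Summed levels of 12 cardiomyocyte markers, at 23500 to 30900 CPM in KO and 25800 to 31000 CPM in WT hearts, fit the labelled tissue. A pair of KO libraries, replicate 2 at E14.5 and replicate 5 at E13.5, had the lowest levels of macrophage markers. The 12 markers summed to 22.6 and 12.9 CPM there, against 33.3 to 117 CPM in the other 4 KO hearts and 85.4 to 105 CPM in the WT hearts. E13.5 KO replicates 3 and 7, at 33.3 and 67.4 CPM, were also below every WT heart, and no clear gap set the lowest pair apart. Where leaving out these macrophage-poor libraries ended a call averaged over stages, the value without them is given, as it is for Cd55 and C3.

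Cd59a and Cd59b encode small lipid-anchored (GPI-anchored) proteins of the cell surface that stop C9 from completing the membrane attack complex. The mouse carries both genes, and Cd59b is known mainly from testis. Both lie on the plus strand of chromosome 2 (GRCm38), Cd59b (ENSMUSG00000068686.12) at chr2:104069849-104091187 and Cd59a (ENSMUSG00000032679.12) at chr2:104095801-104115354, with 4613 bases between them. Their coding sequences, 369 bases for Cd59a and 387 bases for Cd59b, were identical at 85.0% of aligned positions outside gaps. The windows around their starts are printed because the levels of both genes varied together. The windows were identical at 49.8% of aligned positions outside gaps, and no unrelated windows were aligned for comparison. Each window runs from 250 bases before to 50 bases after the annotated start and comes from RefSeq (GRCm38.p6), chr2:104095551-104095850 for Cd59a and chr2:104070816-104071115 for Cd59b, both read 5′ to 3′ on the plus strand. The RefSeq start of Cd59b lies inside the gene as GENCODE draws it. Capitals mark matches to the motifs named next.
Cd59a: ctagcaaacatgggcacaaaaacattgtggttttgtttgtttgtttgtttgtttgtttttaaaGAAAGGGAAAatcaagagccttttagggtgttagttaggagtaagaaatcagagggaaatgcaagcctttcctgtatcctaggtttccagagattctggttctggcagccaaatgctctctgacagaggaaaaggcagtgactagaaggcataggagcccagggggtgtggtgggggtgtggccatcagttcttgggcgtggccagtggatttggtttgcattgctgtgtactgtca
Cd59b: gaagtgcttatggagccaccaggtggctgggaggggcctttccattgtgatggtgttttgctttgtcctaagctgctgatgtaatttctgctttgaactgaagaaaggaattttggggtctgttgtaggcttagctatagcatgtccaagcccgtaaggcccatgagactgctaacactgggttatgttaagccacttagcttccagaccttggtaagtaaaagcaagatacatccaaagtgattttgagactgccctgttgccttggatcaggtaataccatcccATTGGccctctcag

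A total of 6 motifs was searched on both strands in 32851 such windows of 300 bases. The core of the interferon-stimulated response element (GAAA and again GAAA after any 2 bases) had 1 match in the Cd59a window and none in that of Cd59b, and was present in 3.44% of all windows. A CCAAT box (CCAAT) had 1 match in the Cd59b window, on the reverse strand as ATTGG, and was present in 37.4% of all windows. A STAT site (TTCNNNGAA, 8.3% of windows), a GC box (GGGCGG, 35.7%), a CACCC box (CCACCC, 31.5%) and the core of a GATA motif (AGATAA, 11.2%) had no match in either window by these letters. The shorter string CACCC was not searched, and it occurs in the Cd59a window on the reverse strand, as GGGTG. The GC box had 2 matches and the CACCC box 1 in the window of Cd55. The CACCC box had 1 match in the window of Cr1l, and the window of C3 held none of the motifs as searched. Windows were at hand for 5 of the 6 genes, all but Serping1. The Cd59a and Cd59b windows held 1 CpG each and 45.7% and 47% G+C, against a median of 7 CpG and 52.7% over all windows.

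Cd59a was the member with the widest gap between genotypes, and its KO hearts were nearly uniform. At E14.5 it stood at 32.2, 31.8 and 30.1 CPM in KO hearts (replicates 2, 4 and 1) and 18.0, 22.6 and 9.37 CPM in WT hearts (replicates 8, 7 and 7.2). At E13.5 it stood at 33.6, 31.0 and 29.2 CPM in KO hearts (replicates 3, 5 and 7) and 12.3, 11.6 and 18.7 CPM in WT hearts (replicates 1, 4 and 2). Every KO heart lay above every WT heart of both stages. The log2 fold change averaged over stages was 1.03 with an SE of 0.19, a 2.04-fold difference. It was 0.92 ± 0.27 (SE) at E14.5 and 1.14 ± 0.27 (SE) at E13.5. In bulk tissue, more cells that express a gene and more RNA per cell cannot be told apart.

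Cd59b was also higher in KO hearts, at lower levels. In E14.5 hearts the levels were 3.31, 4.59 and 4.34 CPM in KO and 2.24, 3.49 and 1.61 CPM in WT, in the same replicate order. In E13.5 hearts they were 4.24, 3.71 and 4.36 CPM in KO and 1.59, 1.86 and 2.43 CPM in WT. The groups did not overlap at E13.5, while at E14.5 KO replicate 2 lay below WT replicate 7. The log2 fold change was 0.91 ± 0.18 (SE) averaged over stages, a 1.88-fold difference, 0.74 ± 0.26 (SE) at E14.5 and 1.08 ± 0.26 (SE) at E13.5. Without WT replicate 7 the value at E14.5 was 1.09, and without WT replicate 7.2 it was 0.51.

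**Figure D1:**
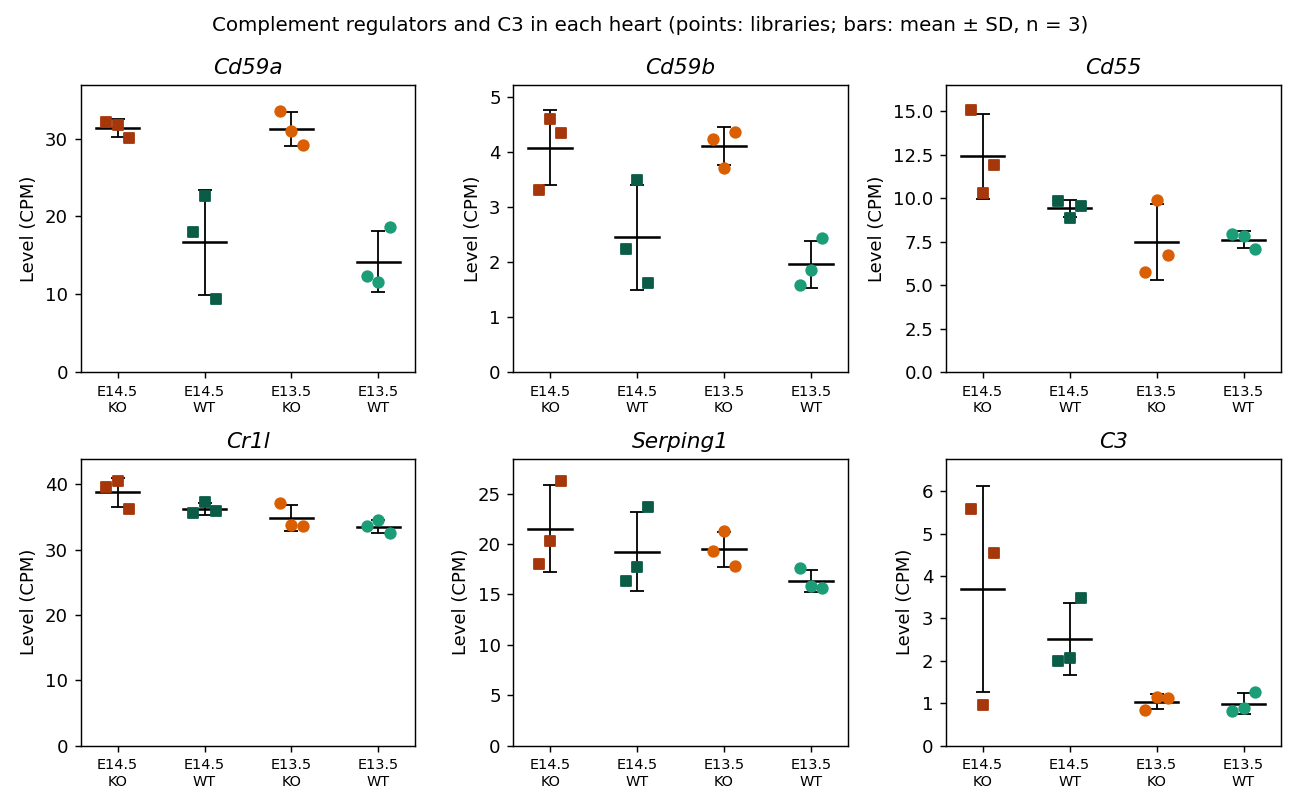
Level (CPM, linear axes from 0) of the 6 genes in each of the 12 hearts, in the groups E14.5 KO, E14.5 WT, E13.5 KO and E13.5 WT. Points are libraries, and bars are the mean ± standard deviation of 3 libraries. For Cd59a the KO points lie between 29.2 and 33.6 CPM and the WT points between 9.37 and 22.6 CPM, while the points of Cr1l lie between 32.5 and 40.5 CPM in all groups.

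The spread of Cd59a between hearts was narrower in KO than in WT. Over both stages, its highest level was 1.15 times its lowest in the 6 KO hearts and 2.41 times its lowest in the 6 WT hearts, with standard deviations (SD) of 0.07 and 0.49 on the log2 scale. For Cd59b, the ratios were 1.39 in KO and 2.20 in WT hearts. Within the WT hearts, both genes were highest in E14.5 replicate 7, and Cd59a was lowest in E14.5 replicate 7.2. The labels number these WT embryos alike but place them in litters 2 and 3. This difference in spread was noticed in the values and was not tested.

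Each litter held both genotypes, so the difference can be read within litters. For Cd59a, KO minus WT on the log2 CPM scale was 1.17 in litter 1 (3 KO and 3 WT hearts), 0.67 in litter 2 (2 and 2) and 1.68 in litter 3 (1 and 1). For Cd59b, the same differences were 1.08, 0.48 and 1.42. Both genes were higher in KO hearts within each of the 3 litters, by the least in litter 2.

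Cd59b counts were lower than Cd59a counts in every heart, and their proportion varied between hearts. As a percentage of Cd59a counts, Cd59b counts were 10.3 to 14.4 in E14.5 KO, 12.5 to 17.2 in E14.5 WT, 12 to 15 in E13.5 KO and 12.9 to 16 in E13.5 WT hearts, and the ranges of KO and WT hearts overlapped at both stages. The means of these percentages were 13 ± 2.39 in E14.5 KO, 15 ± 2.38 in E14.5 WT, 13.2 ± 1.58 in E13.5 KO and 14 ± 1.75 in E13.5 WT hearts (SD, n = 3 each). As a description over the 12 libraries, which share the scaling and the genotype difference that chose the genes, the log2 levels correlated with Pearson's r = 0.95, and with r = 0.82 once each group's mean was removed. Of the 50-base words of Cd59a transcripts, 70 of 1811 (3.87%) also occur in Cd59b. Of those of Cd59b, 264 of 1316 (20.1%) occur in transcripts of other genes, 70 of them in Cd59a. How reads that match several genes were counted is not stated in the labels or the table, so the level of Cd59b is less certain than that of Cd59a.

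**Figure D2:**
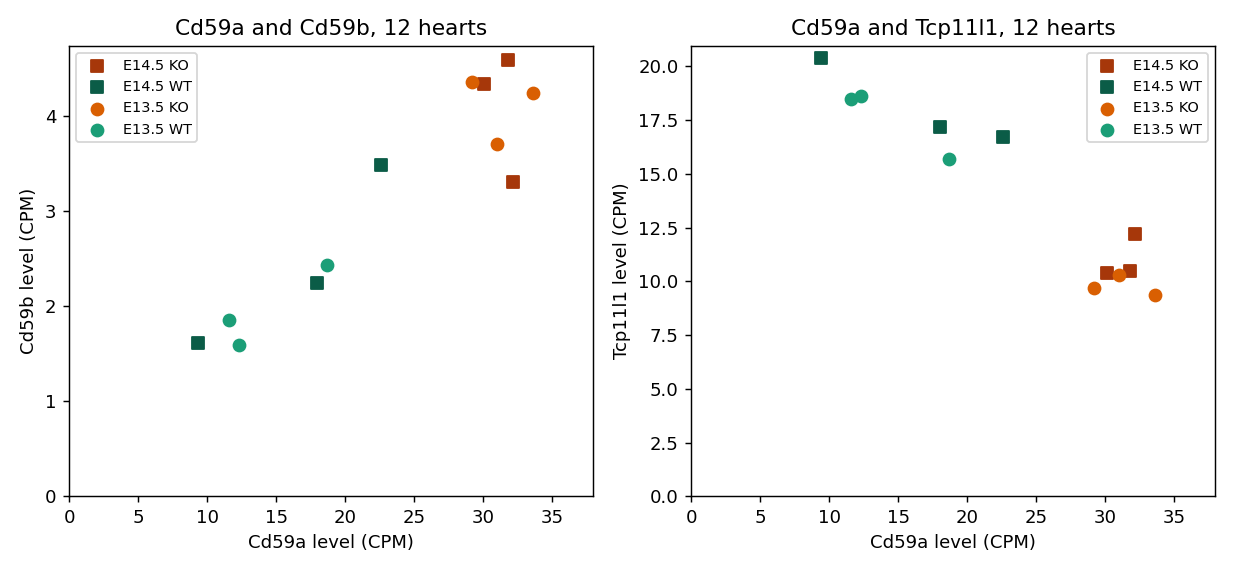
Levels (CPM) of Cd59b in the left panel and of Tcp11l1, a neighbouring gene described further on, in the right panel against that of Cd59a, 1 point per heart, coloured by group. The KO points sit together at 29.2 to 33.6 CPM of Cd59a, while the WT points spread over 9.37 to 22.6 CPM, with Cd59b lower and Tcp11l1 higher where Cd59a is lower.

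Neither Cd59 gene passed the test between stages. Cd59a averaged 31.4 ± 1.11 CPM in E14.5 KO and 31.3 ± 2.23 CPM in E13.5 KO hearts (SD, n = 3 each), a log2 fold change of 0.01 ± 0.27 (SE, edgeR adjusted p = 0.994). In WT hearts it averaged 16.6 ± 6.70 CPM at E14.5 and 14.2 ± 3.89 CPM at E13.5 (log2 fold change 0.23 ± 0.27 (SE), edgeR adjusted p = 0.653). For Cd59b, the stage difference was -0.01 ± 0.25 (SE) in KO and 0.33 ± 0.26 (SE) in WT hearts on the log2 scale (edgeR adjusted p = 0.988 and 0.473). The interaction, which is the genotype difference of the later stage less that of the earlier one, was -0.23 ± 0.38 (SE) for Cd59a and -0.34 ± 0.36 (SE) for Cd59b (edgeR adjusted p = 0.997 each).

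Cd55 and Cr1l encode the membrane inhibitors that act one step earlier, on the convertases that cleave C3 and C5. Cd55, the GPI-anchored decay-accelerating factor, lies at chr1:130439027-130462744 on the minus strand, and 102 bases of its exons overlap Gm16083 on the plus strand. Cd55 levels at E14.5 were 15.1, 10.3 and 11.9 CPM in KO hearts and 9.82, 8.87 and 9.58 CPM in WT hearts. Cd55 levels at E13.5 were 5.73, 9.93 and 6.74 CPM in KO hearts and 7.97, 7.83 and 7.06 CPM in WT hearts. KO hearts thus lay above WT hearts at E14.5, by a log2 fold change of 0.40 ± 0.18 (SE), and on both sides of them at E13.5, with -0.04 ± 0.18 (SE). Without the macrophage-poor libraries, these values were 0.24 at E14.5 and -0.29 at E13.5. Within litters 1, 2 and 3, KO minus WT was -0.07, 0.42 and 0.31 on the log2 CPM scale. Of the 50-base words of Cd55, 9.12% occur in other genes, Cd55b for the most part.

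Cd55 was the member that passed the test between stages, in KO hearts. It averaged 12.4 ± 2.43 CPM in E14.5 KO and 7.47 ± 2.19 CPM in E13.5 KO hearts (SD, n = 3 each), a log2 fold change of 0.74 ± 0.18 (SE, edgeR adjusted p = 0.042), and each E14.5 KO heart was above each E13.5 KO heart. In WT hearts it averaged 9.42 ± 0.497 CPM at E14.5 and 7.62 ± 0.488 CPM at E13.5 without passing (log2 fold change 0.30 ± 0.18 (SE), edgeR adjusted p = 0.336). The interaction was 0.44 ± 0.26 (SE, edgeR adjusted p = 0.997), so the stage differences of KO and WT hearts were not shown to differ. The call in KO hearts was lost with litter as a block (edgeR adjusted p = 0.0819) and when only the libraries compared were fitted (0.129), and it held in 3 of 12 fits that each left out 1 library (0.0264 to 0.151). The block sets litter 3 apart from litter 2 only, so stage and litter still cannot be told apart in it.

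Cr1l (complement receptor 1-like, known as Crry) is a rodent membrane protein that speeds the decay of convertases and serves as a cofactor for the cleavage of C3b. It lies at chr1:195097382-195131586 on the minus strand. Cr1l levels at E14.5 were 39.6, 40.5 and 36.3 CPM in KO hearts and 35.6, 37.3 and 35.9 CPM in WT hearts. Cr1l levels at E13.5 were 37.1, 33.8 and 33.6 CPM in KO hearts and 33.6, 34.5 and 32.5 CPM in WT hearts. Its groups overlapped at both stages, and the log2 fold change averaged over stages was 0.08 ± 0.05 (SE), or 0.05 without E13.5 KO replicate 3. Between stages it differed by 0.16 ± 0.07 (SE) in KO hearts and 0.11 ± 0.07 (SE) in WT hearts on the log2 scale (edgeR adjusted p = 0.211 and 0.33). Of its 50-base words, 4.34% occur in other genes, nearly all in the pseudogene Crry-ps.

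Serping1 encodes the C1 inhibitor, a secreted serpin that blocks the proteases C1r and C1s and those of the lectin branch. It lies at chr2:84765387-84775444 on the minus strand, 19.3 Mb from Cd59b and 34.61 Mb from Ino80. Serping1 levels at E14.5 were 18.0, 20.3 and 26.3 CPM in KO hearts and 16.3, 17.7 and 23.7 CPM in WT hearts. Serping1 levels at E13.5 were 19.3, 21.3 and 17.8 CPM in KO hearts and 17.6, 15.8 and 15.6 CPM in WT hearts. The litter 3 hearts were the highest of both genotypes, and the groups did not overlap at E13.5. The log2 fold change was 0.21 ± 0.11 (SE) averaged over stages. It was 0.12 without E14.5 KO replicate 1 and 0.29 without E14.5 WT replicate 7.2, the litter 3 hearts. Within litters, KO minus WT was 0.25 in litter 1, 0.17 in litter 2 and 0.15 in litter 3 on the log2 CPM scale. Between stages, Serping1 did not pass the test in KO (0.15 ± 0.15 (SE), edgeR adjusted p = 0.651, or 0.33 without the macrophage-poor libraries) or in WT hearts (0.24 ± 0.15 (SE), edgeR adjusted p = 0.37).

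C3, the component at which all branches meet, was the lowest of the members per kilobase of exon and the most variable. It lies at chr17:57203970-57228136 on the minus strand. At E14.5 it stood at 5.58, 0.961 and 4.53 CPM in KO hearts and 1.99, 2.07 and 3.49 CPM in WT hearts. At E13.5 it stood at 0.838, 1.16 and 1.13 CPM in KO hearts and 0.815, 0.890 and 1.27 CPM in WT hearts. Of the E14.5 KO hearts, replicate 4 was at the E13.5 level and the others were above every WT heart. The log2 fold change between genotypes was 0.32 ± 0.35 (SE) averaged over stages, and 0.06 without the macrophage-poor libraries. It was 0.10 without E14.5 KO replicate 2 alone and 0.54 without E14.5 KO replicate 4. Macrophages are known producers of C3. In E14.5 KO replicates 2, 4 and 1, in the order of the C3 levels above, the summed macrophage markers were 22.6, 117 and 104 CPM, so high C3 stood beside a low sum in replicate 2 and beside a high sum in replicate 1. The part of macrophages in the C3 levels was not tested. Within litters 1, 2 and 3, KO minus WT for C3 was 0.09, 0.19 and 0.37 on the log2 CPM scale.

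Between stages, C3 averaged 3.69 ± 2.42 CPM in E14.5 KO and 1.04 ± 0.18 CPM in E13.5 KO hearts, and 2.52 ± 0.845 CPM in E14.5 WT and 0.990 ± 0.241 CPM in E13.5 WT hearts (SD, n = 3 each). In WT hearts the stages did not overlap. The log2 fold changes, 1.82 ± 0.50 (SE) in KO and 1.36 ± 0.50 (SE) in WT, did not pass (edgeR adjusted p = 0.0671 and 0.138). Leaving out E14.5 KO replicate 4 gave 2.27 in KO hearts and adjusted p-values of 0.00218 in KO and 0.0201 in WT hearts, since all groups share 1 estimate of the spread. By DESeq2, both stage differences passed (adjusted p = 0.00261 in KO and 0.0358 in WT hearts).

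Read against the whole table, the genotype contrast gave 3 of 6 members whose KO and WT hearts did not overlap at E13.5 (Cd59a, Cd59b and Serping1, all higher), where 19.6% of tested genes did not overlap and 8.44% were higher in KO without overlap. At E14.5 it gave 2 of 6 (Cd59a and Cd55, both higher), where 12.7% of tested genes did not overlap and 6.81% were higher in KO without overlap. KO hearts above all WT hearts at both stages, each stage taken alone, were found for 1.75% of genes. Nothing is read from these counts, since the contrast chose the members. The background of the averaged genotype test was 1.42% of genes called at an edgeR adjusted p under 0.05, with 0.222% called at E14.5 and 0.106% at E13.5. Averaged over stages, 14.7% of genes had an unadjusted p under 0.05, and DESeq2 called 4.48%.

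For stage, which the choice did not use, 1 of 6 members passed the edgeR test in KO hearts (Cd55), where 3.74% of genes passed, and 0 of 6 in WT hearts, where 4.04% passed. At an unadjusted p under 0.05 there were 3 of 6 members in KO hearts (20.1% of all genes) and 1 of 6 in WT hearts (22.7%). DESeq2 called 2 of 6 in KO hearts (8.81% of all genes) and 1 of 6 in WT hearts (10.3%). Stages did not overlap for 1 of 6 members in KO hearts (24.9% of genes) and for 3 of 6 in WT hearts (Cd55, Cr1l and C3, 29.5% of genes). For the interaction, 0 of 6 members passed by edgeR, by DESeq2 or at an unadjusted p under 0.05, and the background was 0% of genes called by edgeR, with 746 genes (3.61%) at an unadjusted p under 0.05 and 2 (0.00967%) called by DESeq2.

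**Figure D3:**
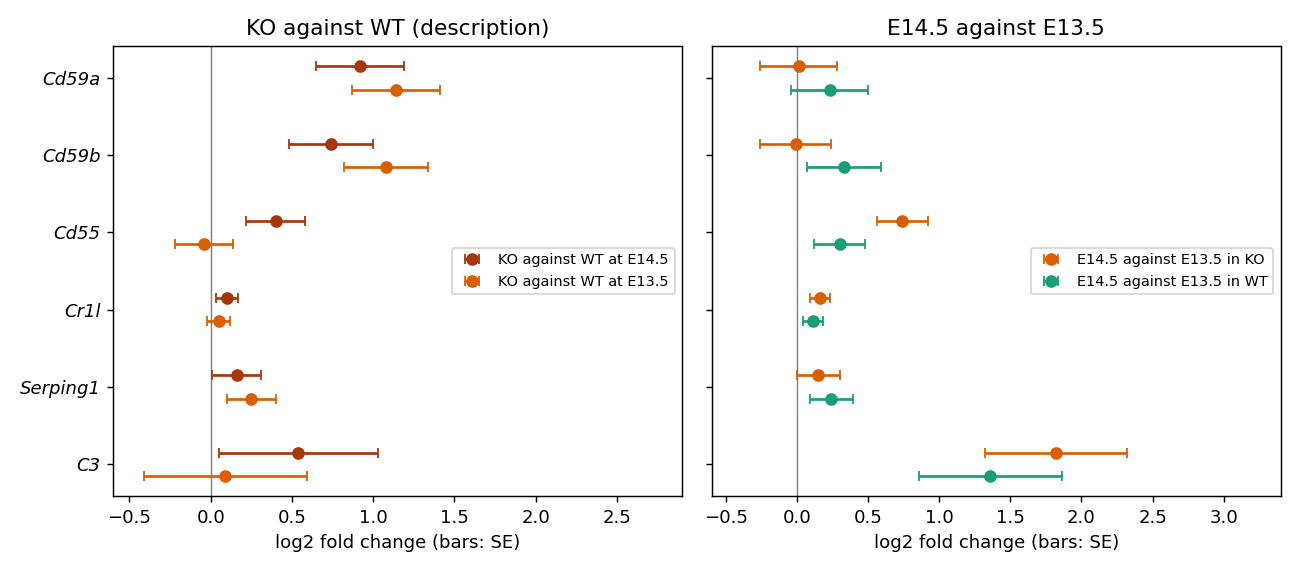
Log2 fold changes of the 6 genes with their standard errors (bars), KO against WT at E14.5 and E13.5 in the left panel and E14.5 against E13.5 in KO and WT hearts in the right panel. In the left panel the points of Cd59a (0.92 and 1.14) and Cd59b (0.74 and 1.08) lie farthest to the right, and in the right panel those of C3 (1.82 and 1.36).

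Between genes, levels were compared per kilobase of exon, with the exons of all annotated transcripts of a gene joined. That length was 10.35 kb for Cr1l, 1.81 kb for Cd59a and 2.33 kb for Serping1, and the order depends on it. By CPM without this division, Cr1l had the highest mean of the members in each group. In KO hearts the order at E14.5 was Cd59a at 17.3, Serping1 at 9.26, Cr1l at 3.75, Cd59b at 3.14, Cd55 at 2.56 and C3 at 0.717 CPM per kb. In WT hearts at E14.5 it was Cd59a at 9.19, Serping1 at 8.27, Cr1l at 3.51, Cd55 at 1.94, Cd59b at 1.88 and C3 at 0.489 CPM per kb. At E14.5 Cd59a was thus clear of Serping1 in KO hearts (at least 16.6 against at most 11.3 CPM per kb), while the pair overlapped in WT hearts (5.17 to 12.5 and 7.03 to 10.2 CPM per kb). Cr1l and Cd59b overlapped in KO hearts of both stages, and Cd55 and Cd59b overlapped in WT hearts of both stages and in E14.5 KO hearts. At E13.5 the order was the same within each genotype, with C3 lowest at 0.203 in KO and 0.193 CPM per kb in WT hearts.

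The neighbourhood of the Cd59 genes was read next. They start 15.28 Mb from Ino80 on the same chromosome. Within 1 Mb of the start of Cd59a, 24 other genes were tested, and 1 of them (4.17%) passed the averaged genotype test, against 1.42% of all genes. This was Tcp11l1, 0.616 Mb away at chr2:104657288-104712169 on the minus strand, and it fell. At E14.5 it stood at 12.2, 10.5 and 10.4 CPM in KO hearts and 17.2, 16.7 and 20.4 CPM in WT hearts. At E13.5 it stood at 9.37, 10.3 and 9.71 CPM in KO hearts and 18.6, 18.5 and 15.7 CPM in WT hearts. No KO heart reached the level of any WT heart, and Tcp11l1 fell by 0.78 on the log2 scale (SE 0.07, edgeR adjusted p = 0.000474).

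The Tcp11l1 call averaged over stages held in all 20 alternatives run. Within litters, KO minus WT for Tcp11l1 was -0.84, -0.58 and -0.97 in litters 1, 2 and 3 on the log2 CPM scale, smallest in litter 2 as for the Cd59 genes. Of 12999 genes compared, Tcp11l1 had the lowest Pearson correlation with both, r = -0.92 with Cd59a and -0.91 with Cd59b over the 12 libraries. Over the 6 WT hearts alone, r was -0.91 with Cd59a and -0.76 with Cd59b, and over the 6 KO hearts 0.10 and -0.71. These are descriptions over libraries that share the genotype difference.

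The genes nearest to the Cd59 pair did not pass the averaged genotype test. Fbxo3, which encodes an F-box protein of a ubiquitin ligase and starts 0.068 Mb before Cd59a, averaged 76.1 ± 6.77 CPM in E14.5 KO, 70.2 ± 4.92 in E14.5 WT, 66.0 ± 2.22 in E13.5 KO and 69.2 ± 1.38 in E13.5 WT hearts (SD, n = 3 each), with a log2 fold change of 0.02 ± 0.05 (SE, edgeR adjusted p = 0.862) averaged over stages. The gene 4931422A03Rik, 0.067 Mb before Cd59a, had a log2 fold change of -0.13 ± 0.34 (SE, edgeR adjusted p = 0.897). The pseudogene Gm13882, 0.196 Mb after Cd59a, had a log2 fold change of 0.49 ± 0.27 (SE, edgeR adjusted p = 0.426). Over the 24 genes the median log2 fold change was 0.02, with 15 above 0, against a median of 0.00 over all genes.

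**Figure D4:**
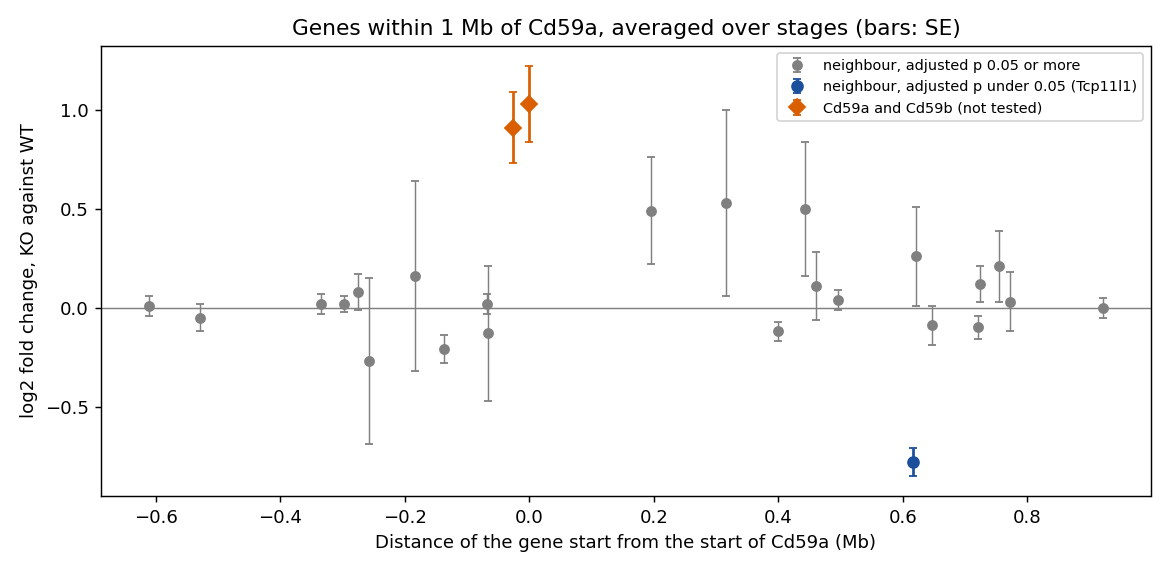
Log2 fold change, KO against WT averaged over stages, of the tested genes within 1 Mb of the start of Cd59a, plotted by distance from that start, with standard errors as bars. Cd59a (1.03) and Cd59b (0.91) stand above their neighbours, and Tcp11l1 (-0.78), 0.616 Mb away, stands below them.

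Of 61 further complement genes in 5 lists, 60 were in the table and 40 were tested, and 1 rose and 1 fell in KO hearts averaged over stages (5% of those tested, against 1.42% of all genes, median log2 fold change -0.04). Clu, encoding clusterin, a secreted chaperone that also holds back the membrane attack complex, rose. It averaged 141 ± 20.3 CPM in E14.5 KO, 78.4 ± 10.3 in E14.5 WT, 182 ± 31.9 in E13.5 KO and 143 ± 25.4 in E13.5 WT hearts (SD, n = 3 each), with a log2 fold change of 0.60 ± 0.12 (SE, edgeR adjusted p = 0.0352), and its call held in 8 of 20 alternatives. Without the macrophage-poor libraries Clu had 0.61 and did not pass (edgeR adjusted p = 0.0807), in a fit whose calls over the whole table also fell. Colec11, a soluble collectin that starts the lectin branch, fell by 1.10 on the log2 scale (SE 0.15, edgeR adjusted p = 0.00368). It averaged 3.91 ± 0.898 CPM in E14.5 KO, 7.22 ± 1.77 in E14.5 WT, 1.49 ± 0.286 in E13.5 KO and 3.66 ± 0.131 in E13.5 WT hearts (SD, n = 3 each), without overlap at either stage, and its call held in all 20 alternatives.

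By role, 16 genes of the classical and lectin initiation steps held 0 calls up and 1 down (Colec11), with a median of -0.02. Colec12, a membrane scavenger collectin, and Masp1, a protease of the lectin branch, had the highest CPM of this list and log2 fold changes of -0.01 ± 0.08 and 0.39 ± 0.10 (SE, edgeR adjusted p = 0.98 and 0.083). Of the alternative branch only Cfp (properdin, which stabilises the convertase) was tested, at -0.10 ± 0.18 (SE, edgeR adjusted p = 0.838). Of 7 terminal components 2 were tested, C8g at -0.05 ± 0.17 (SE) and C7 at 0.35 ± 0.33 (SE), with edgeR adjusted p = 0.926 and 0.665. C7 lay at 0.0974 to 0.357 CPM in all hearts. The other 5 terminal components had too few counts to be tested, which says nothing of the proteins in plasma.

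Of 9 tested complement receptors 0 passed by edgeR or by DESeq2 averaged over stages, and 2 had an unadjusted p under 0.05, with a median of -0.41. Calr and Cd93, both described as C1q-binding proteins, had the highest CPM of this list and log2 fold changes of 0.08 ± 0.05 and -0.03 ± 0.06 (SE, edgeR adjusted p = 0.445 and 0.824). C1qa, C1qb and C1qc, which macrophages make, were among the initiation genes and had values of -1.12, -1.03 and -0.92 (edgeR adjusted p = 0.441, 0.457 and 0.512). The 12 macrophage markers, C1qa, C1qb and C1qc among them, all had a log2 fold change below 0, and 0 passed by edgeR or by DESeq2, with 2 at an unadjusted p under 0.05 and a median of -0.95. Without the macrophage-poor libraries 1 of them passed, and it fell. Their sums were 22.6 to 117 CPM in E14.5 KO, 85.4 to 95.3 in E14.5 WT, 12.9 to 67.4 in E13.5 KO and 101 to 105 in E13.5 WT hearts, none of them at 0. Of 12 other regulators only Clu passed.

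Between stages, 6 of the 40 complement genes rose and 0 fell in KO hearts (3.74% of all genes passed), and 2 rose and 2 fell in WT hearts (4.04%). Among those in KO hearts were Colec11, the C1r genes C1ra and C1rb, Cd93 and Sez6l2, with log2 fold changes of 1.41, 2.00, 2.08, 0.32 and 1.32. In WT hearts Colec11 and C1s1 rose by 0.98 and 2.77, and Colec12 and Clu fell by 0.51 and 0.86. C1s1, C1rb and C1ra had low levels, averaging 0.284, 0.433 and 0.874 CPM over all hearts. In KO hearts the call of Colec11 held in 20 of 21 alternatives run, that of C1ra in 16, C1rb in 14, Sez6l2 in 13 and Cd93 in 4. With litter as a block, Cd93 and Sez6l2 lost it (edgeR adjusted p = 0.107 and 0.0661). Without the macrophage-poor libraries 3 of the 40 genes rose in KO hearts, in a fit whose calls over the whole table also fell, as given further on. In WT hearts the calls of Colec11 and C1s1 held in 14 of 21 alternatives, that of Colec12 in 12 and that of Clu in 16. With litter as a block, Colec11, C1s1 and Clu lost it (edgeR adjusted p = 0.0575, 0.0609 and 0.0582). Without the macrophage-poor libraries 1 of the 40 genes rose and 1 fell in WT hearts, where calls over the whole table fell too. C1ra, C1rb, C1s1 and Sez6l2 were named after their values were seen, and C1ra and C1rb are near-copies whose reads may have been split.

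**Figure D5:**
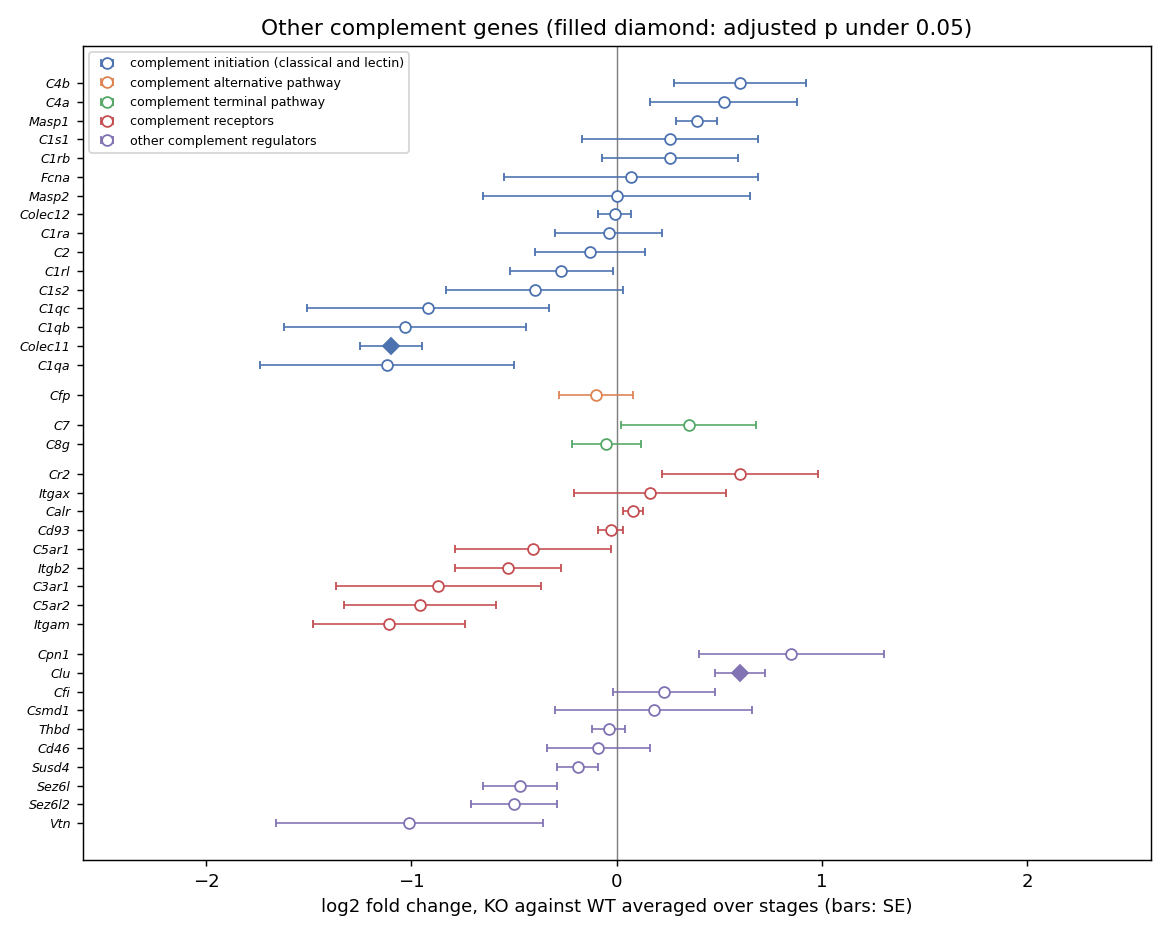
Log2 fold change, KO against WT averaged over stages, of 38 of the 40 tested complement genes outside the 6, coloured by role, with standard errors as bars. Filled diamonds mark the genes that passed the edgeR test, Clu (0.60) and Colec11 (-1.10), and open circles the others.

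CD59 and CD55 proteins reach the surface on a GPI anchor, and CD59 belongs to the Ly6/uPAR family of small disulphide-rich proteins. Of 26 tested genes for making and attaching the anchor, 0 passed by edgeR or by DESeq2 averaged over stages (3 at an unadjusted p under 0.05, median -0.01). Pigt and Pigq, the highest in CPM, had -0.01 ± 0.07 and 0.02 ± 0.04 (SE, edgeR adjusted p = 0.957 and 0.862). Of 14 tested members of the Ly6/uPAR family other than the Cd59 genes, 1 rose and 1 fell, where 1.42% of all genes passed. Plaur, the GPI-anchored urokinase receptor, rose, at 10.3, 6.34 and 10.7 CPM in E14.5 KO and 4.76, 2.78 and 3.69 CPM in E14.5 WT hearts, and 8.27, 6.43 and 8.25 CPM in E13.5 KO and 5.76, 5.13 and 4.65 CPM in E13.5 WT hearts. Its KO hearts lay above its WT hearts at both stages, with a log2 fold change of 0.92 ± 0.15 (SE, edgeR adjusted p = 0.0112), a call that held in 19 of 20 alternatives. Without the macrophage-poor libraries it had 0.93 and did not pass (edgeR adjusted p = 0.05). Gpihbp1, which anchors lipoprotein lipase on capillary endothelium, had -0.82 ± 0.18 (SE, edgeR adjusted p = 0.0429), a call that held in 9 of 20 alternatives. Without the macrophage-poor libraries it had the same value and did not pass (edgeR adjusted p = 0.212). For Plaur and Gpihbp1 alike, that fit had fewer calls over the whole table, as given further on. Ly6e and Lynx1, the highest of the family in CPM, had 0.22 and -0.07 (edgeR adjusted p = 0.332 and 0.934).

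Interferon-stimulated genes also differed between KO and WT hearts, while the sums of erythroid markers overlapped at both stages. Of 20 interferon-stimulated genes, 8 rose and 0 fell in KO hearts averaged over stages, where 1.42% of all genes passed (median log2 fold change 1.28). Without the macrophage-poor libraries 4 rose averaged over stages, in a fit whose calls over the whole table fell as well. At E14.5 and E13.5 taken alone 0 passed by edgeR, against 0.222% and 0.106% of all genes. In that order, 17 and 17 of the 20 had log2 fold changes above 0, with medians of 1.41 and 0.92. An unadjusted p under 0.05 was found for 15 and 12 of them, against 1986 and 2137 of the 20691 tested genes. DESeq2 called 9 and 8, and its calls over the whole table are given further on. Sums of the 20 genes were 111 to 239 CPM in E14.5 KO, 88.8 to 98.9 in E14.5 WT, 118 to 189 in E13.5 KO and 79.0 to 90.1 in E13.5 WT hearts, without overlap at either stage. The KO heart with the lowest sum, E14.5 replicate 1 at 111 CPM, had 30.1 CPM of Cd59a, and that with the highest, E14.5 replicate 2 at 239 CPM, had 32.2 CPM. Of 8 tested erythroid markers 0 passed by edgeR, by DESeq2 or at an unadjusted p under 0.05 averaged over stages, and their sums were 2770 to 32200 CPM in E14.5 KO, 8730 to 14500 in E14.5 WT, 2190 to 4950 in E13.5 KO and 4490 to 7970 in E13.5 WT hearts. Of 12 endothelial markers 1 rose and 2 fell averaged over stages, where 1.42% of all genes passed (0 rose and 2 fell without the macrophage-poor libraries). The average joins unlike stages. At E14.5, 10 of these markers had log2 fold changes above 0 (median 0.21), and at E13.5, 4 had (median -0.1). The interaction was above 0 for all 12 markers, and 0 passed it by edgeR or by DESeq2. An unadjusted p under 0.05 for it was found for 6 markers, against 3.61% of all genes. Their sums were 1300 to 1420, 1110 to 1310, 1210 to 1230 and 1230 to 1320 CPM in the same order of groups. The part of these cells and genes in the Cd59 difference was not tested.

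Likeness between genes is given as a description, without a test. The libraries share the stage difference and the genotype difference that chose the Cd59 genes. The correlations below are also the highest of many, so they are extremes by selection. Across the 12 hearts, the genes whose log2 levels were most like those of each member, among 12999 genes averaging 1 CPM or more, were as follows. For Cd59a they were Plk3 (a polo-like kinase), AW011738 and Rapgef5 (an exchange factor of Rap GTPases), with Pearson's r of 0.91, 0.90 and 0.89. For Cd59b they were RP23-301O12.1, Podxl (podocalyxin, a sialomucin of endothelium) and Mbp (myelin basic protein), with r of 0.87, 0.86 and 0.85. For Cd55 they were Prrx1 (a mesenchymal homeobox factor), Pmp22 (a tetraspan membrane protein) and Egln1 (an oxygen-sensing prolyl hydroxylase), with r of 0.91, 0.90 and 0.90. No gene was among the 3 of more than 1 member. For Cr1l they were Amd-ps5, Rb1 and Rnf170, with r of 0.91, 0.90 and 0.90. For Serping1 they were Rcor1, Ttc30a2 and Sestd1, with r of 0.87, 0.85 and 0.85, and for C3 they were Klf6, Kat2b-ps and Chchd3, with r of 0.94, 0.93 and 0.93. Among the members themselves, Cd55 and C3 came after the Cd59 pair with r = 0.77, and with 0.50 once group means were removed.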

How the data were processed

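RNA of 12 whole embryonic hearts was sequenced in 4 groups of 3. The authors deposited 1 table of 45664 rows with raw, unscaled counts per gene symbol. The submitters' processing notes name STAR 2.5.3a, featureCounts, DESeq2, DESeq and build GRCm38, with no role or order. Strand, the treatment of multi-mapping reads and the annotation used in counting are not given in the sources used here. Reads of near-copies can therefore be split or lost.

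Counts were fitted in R 4.3.3 with edgeR 4.0.16: filterByExpr left 20691 genes, TMM scaled the libraries, and 1 robust quasi-likelihood model with 4 group means used all 12 libraries (17.1% common biological variation, 8 residual degrees of freedom). Tests were two-sided, with Benjamini-Hochberg adjustment over all tested genes and a threshold of 0.05. Comparisons were the genotypes per stage and averaged over stages, the stages per genotype, and the interaction. P-values measure the spread between embryos. An SE is the absolute log2 fold change over the square root of F. Log2 CPM used a prior count of 2. The code of the fit was run on simulated counts with the same spread for every gene and no litters. That run cannot show how the fit behaves on hearts like these. Positions, exon lengths and transcripts are those of GENCODE M21 (GRCm38). Coding sequences and start windows were aligned with Biopython 1.88.

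The members and gene lists were chosen with earlier results of these data known. Named genes were the 6 members, Ino80, for each list up to 4 called genes with the smallest p and the 2 of highest mean CPM, called genes within 1 Mb of Cd59a with the nearest tested genes, and the 3 genes most correlated with each member, leaving out symbols of predicted genes. A named gene of the list of other regulators is not reported here.

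Alternatives were DESeq2 1.42.0, RLE size factors, a fit without the low-count filter, a fit of the compared libraries alone, a litter block, a covariate of Y-linked expression, leaving out litter 3, leaving out both KO libraries low in macrophage markers (E14.5 replicate 2 and E13.5 replicate 5), and leaving out each library in turn. The litter block was a term for litter 3 alone, so its stage tests still compared litter 2 with litter 1. A fit without robust shrinkage was added after seeing the data. The pairing of KO with WT embryos comes from the litters in the labels. Correlations of deviations across genes were between -0.0996 and 0.0625 for E14.5 embryos of the same litter. For E14.5 embryos of different litters they were between -0.0721 and 0.0606. Deviations cancel within a group, so these values depend on each other and cannot settle the pairing, which they did not show.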

Additional observations from a re-analysis of the deposited data

How the results depend on the processing

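The 1 stage call of a member, that of Cd55 in KO hearts, kept its sign in every alternative run. Stage differences that did not pass could change sign. That of Cd59a in WT hearts went from 0.23 to -0.06 without E14.5 WT replicate 7. The stage differences of C3 gained a call in 5 fits and that of Cd55 in KO hearts lost its call in 12. For Cd55 in KO hearts, the value of 0.74 (edgeR adjusted p = 0.042) was 0.74 with only the libraries compared (0.129), 0.75 with litter as a replicate block (0.0819) and 0.77 without litter 3 (0.0867), and lay between 0.58 and 0.99 when single libraries were left out. For C3, DESeq2 gave 1.82 in KO (adjusted p = 0.00261) and 1.35 in WT hearts (0.0358), and only the libraries compared gave 1.36 in WT hearts (edgeR adjusted p = 0.0465). Leaving out single libraries gave 1.39 to 2.27 in KO hearts and 1.23 to 1.56 in WT hearts, or 1.04 without WT replicate 7.2. For KO against WT averaged over stages, it gave 0.88 to 1.17 for Cd59a and 0.79 to 1.08 for Cd59b. With the litter block, Cd59a had 1.07 and Cd59b 0.93.

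Counts of called genes over the whole table moved more. Averaged over stages, the 293 calls of KO against WT became 926 by DESeq2, 63 without both macrophage-poor KO libraries, and 125 to 483 without single libraries. At E14.5, 46 calls became 348 by DESeq2, 77 without the filter, 2 with only the libraries compared, 92 with the litter block, 10 without the macrophage-poor libraries and 13 to 107 without single libraries (10 without WT replicate 7.2). At E13.5, 22 calls became 310 by DESeq2, 40 without the filter, 95 with only the libraries compared, 60 with the litter block, 9 with the Y-linked covariate, 71 without litter 3 and 2 to 69 without single libraries. Between stages in KO hearts, 774 calls became 1822 by DESeq2, 289 with only the libraries compared, 332 with the litter block, 397 with the Y-linked covariate, 130 without the macrophage-poor libraries and 66 to 912 without single libraries (1076 without WT replicate 7.2). Between stages in WT hearts, 836 calls became 2140 by DESeq2, 299 with the litter block, 474 without the macrophage-poor libraries, 95 without litter 3 and 8 to 1081 without single libraries. The interaction had 0 calls, 2 by DESeq2 and 0 to 0 without single libraries. The causes were not tested. The wide spread of Cd59a in WT hearts limits what 3 embryos per group can show: its stage difference has an SE of 0.27 on the log2 scale.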

Other observations

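Between stages, some Ly6/uPAR relatives of the Cd59 genes rose. In WT hearts 4 of 14 tested relatives rose with stage and 0 fell, where 4.04% of all genes passed by edgeR. They were Ly6c1, Ly6c2 and Ly6a, surface proteins known from endothelium and blood cells, and Gpihbp1, with log2 fold changes of 2.85, 2.74, 1.94 and 1.56 (edgeR adjusted p = 0.0175, 0.0263, 0.0362 and 0.0188). Their calls held in 18, 15, 12 and 18 of 21 alternatives, and with litter as a block Ly6c2 and Ly6a lost it (edgeR adjusted p = 0.0533 and 0.078). The 3 Ly6 genes were named after their values were seen, and Ly6c1 and Ly6c2 are near-copies between which reads may have been split. In KO hearts Gpihbp1 rose, by 1.87 (edgeR adjusted p = 0.00573), where 3.74% of all genes passed. Gpihbp1 averaged 7.75 ± 2.97 CPM in E14.5 KO, 12.2 ± 3.04 in E14.5 WT, 2.12 ± 0.155 in E13.5 KO and 4.15 ± 0.627 in E13.5 WT hearts (SD, n = 3 each). The stage difference of Ly6c1 in KO hearts was 1.45 (edgeR adjusted p = 0.0862), and its interaction of -1.40 did not pass (0.997).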
